A study of Mus musculus with 12 samples.

Results

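Squamous (stratified) epithelium is built in layers, and 40 genes that mark these layers were followed in teratomas grown from mouse embryonic stem (ES) cells. The 40 symbols were taken as a list of keratins, junction proteins, regulators and cornified-layer proteins, chosen with earlier results of these data known. All 40 were found among the 38986 genes listed for each library, and 31 of them passed the filter on low counts that left 18405 genes for testing. The teratomas came from R1 mouse ES cells transduced with a pEZ-LV235 vector that drives its insert from the CAG promoter. The vector was empty in the ET group, carried wild-type Dnmt3L in the WT group and carried Dnmt3L with 1 lysine changed to arginine in each of the K238R and K412R groups, so every group, the control included, had undergone lentiviral transfer. Dnmt3L is a cofactor without catalytic activity of its own that stimulates the de novo DNA methyltransferases, and both lysines are sites of acetylation. Male NOD-PrkdcEM1 mice, an immunodeficient strain, received 5000000 cells under the skin at 8 weeks of age, and the tumours were removed at day 21 and sequenced as 3 libraries per group, 12 in all. All groups derive from 1 ES cell line, and RNA of host cells that enter a subcutaneous tumour is counted with that of the graft. The labels number the 3 libraries of a group without tying them to animals, so that the p-values below measure the spread between these libraries.

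A stratified epithelium renews itself from a basal layer that is anchored to the basement membrane by hemidesmosomes and expresses the keratin pair Krt5 and Krt14 under the transcription factor Trp63. Cells that leave this layer switch to other keratin pairs, Krt1 and Krt10 in the epidermis and Krt4 and Krt13 in the lining of the mouth and oesophagus, while desmosomes hold neighbouring cells together. In the epidermis the outermost cells crosslink involucrin, loricrin and small proline-rich proteins with transglutaminases into a cornified envelope and bundle their keratin with filaggrin. Nests of squamous epithelium are a familiar component of teratomas.

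The libraries held between 16957677 and 18546100 counts, and values below are CPM, counts scaled to the library total. Dnmt3l itself was read at 0.649 to 7.62 CPM in ET, 165 to 204 CPM for WT, 26.0 to 38.9 CPM for K412R and 0.543 to 1.89 CPM for the libraries labelled K238R. The K238R libraries therefore held no more of the transcript than the empty vector (log2 fold change −1.59, standard error (SE) 0.70, adjusted p = 0.805), and they are called the libraries labelled K238R throughout. Each of the 12 pairs of replicates spread beyond sampling noise, chi-square divided by its degrees of freedom running from 10.5 to 52.6, the latter for ET replicates 2 and 3. No batch is named in the labels.

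The genes lie in clusters as well as in layers. Of the 40, 7 are on chromosome 11, namely 6 type I keratins and Itgb4, 5 on chromosome 15 with the type II keratins and 8 on chromosome 3 with the genes of the cornified envelope. RefSeq windows upstream of the start site were matched for 23 of the 40 genes (27 windows, build GRCm38.p6). The sequence AP-1 binds (TGANTCA, the same on both strands) was present in 9 of these 23 genes, 8 of which are cornified-layer genes out of 14 with a window. It stood in 37.04% of the 27 windows and in 6.75% of all 32851 windows of the same length. TATAAA, read on both strands, stood in 10 of the 23 genes, in 37.04% of their windows against 12.37% of all windows. The AP-2 sequence GCCNNNGGC was found in 2 genes (Dsp and Grhl1, 7.41% of windows against 13.73%), and AACCGGTT, the sequence of the grainyhead factors, in 0 of the 27 windows against 0.12% of all. A match describes letters in the window and not a bound site. The 250 bases before the start site are shown for a basal keratin, a mucosal and an epidermal suprabasal keratin and a cornified-envelope gene, since the results below separate these genes; TATAAA and TGANTCA matches are in capitals.
Krt5 (chr15:101712906-101713155, minus strand): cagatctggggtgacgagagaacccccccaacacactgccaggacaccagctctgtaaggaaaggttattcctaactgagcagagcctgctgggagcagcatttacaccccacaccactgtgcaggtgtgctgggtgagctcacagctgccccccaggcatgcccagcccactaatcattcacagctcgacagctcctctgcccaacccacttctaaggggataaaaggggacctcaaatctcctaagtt
Krt13 (chr11:100121567-100121816, minus strand): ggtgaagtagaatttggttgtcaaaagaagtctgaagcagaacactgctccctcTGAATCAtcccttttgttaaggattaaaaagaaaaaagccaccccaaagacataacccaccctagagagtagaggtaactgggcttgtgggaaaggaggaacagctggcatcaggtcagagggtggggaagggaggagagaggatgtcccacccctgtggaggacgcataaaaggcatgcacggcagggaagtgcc
Krt10 (chr11:99389365-99389614, minus strand): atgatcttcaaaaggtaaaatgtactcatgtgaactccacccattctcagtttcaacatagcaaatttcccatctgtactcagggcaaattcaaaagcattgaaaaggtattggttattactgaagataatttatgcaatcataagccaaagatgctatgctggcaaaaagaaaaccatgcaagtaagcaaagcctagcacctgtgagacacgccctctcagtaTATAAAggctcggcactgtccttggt
Sprr1a (chr3:92485882-92486131, minus strand): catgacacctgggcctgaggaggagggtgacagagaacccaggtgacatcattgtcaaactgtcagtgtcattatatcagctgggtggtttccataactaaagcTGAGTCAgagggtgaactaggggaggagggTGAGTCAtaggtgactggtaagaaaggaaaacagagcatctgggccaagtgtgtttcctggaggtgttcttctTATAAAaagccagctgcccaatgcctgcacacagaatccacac
Krt5 shows no match to either sequence. In the Krt13 window shown, 1 AP-1 match begins 196 bases before the start site, and the window of a second annotated start site of Krt13, not shown, has AP-1 matches at 34 and 183 bases. Krt10 has a TATAAA at 26 bases, and Sprr1a has a TATAAA at 43 bases and AP-1 matches at 116 and 146 bases.

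Across the teratomas the genes of the basal layer and of a mucosal suprabasal layer were read in every library. Of the 15 genes of the cornified layer, 7 were too low to pass the filter. Per kilobase of annotated exon, the order of the 40 genes by mean level began with Krt15 (mean 89.3, range 21.2 to 171 CPM per kb), followed by Krt4 (mean 36.2, range 4.4 to 68.1 CPM per kb), Krt5 (mean 21.1, range 6.45 to 41.6 CPM per kb), Itga6 (mean 19, range 14.1 to 28.1 CPM per kb) and Krt13 (mean 17.5, range 3.03 to 37.9 CPM per kb). The epidermal pair stood far lower, with Krt1 at mean 1.71, range 0.838 to 2.65 CPM per kb and Krt10 at mean 1.6, range 1.1 to 2.22 CPM per kb. The ranges of Krt15, Krt4, Krt5 and Krt13 over the libraries overlap each other, while the highest Krt1 or Krt10 value lay below the lowest value of each of these 4 genes. The 9 genes that did not pass the filter, namely Ivl, Flg, Flg2, Sprr1b, Sprr3, Klk7, Lce3a, Dsg1a and Krt16, summed to 132 counts over all 12 libraries, and none exceeded 1.08 CPM in any library. Of these 9 genes, 7 belong to the cornified layer, which kept 8 of its 15 genes for testing, 1 to the desmosome and 1 to the stress keratins. All genes of the basal layer (7), the suprabasal keratins (4) and the regulators (4) were tested.

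**Figure D1:**
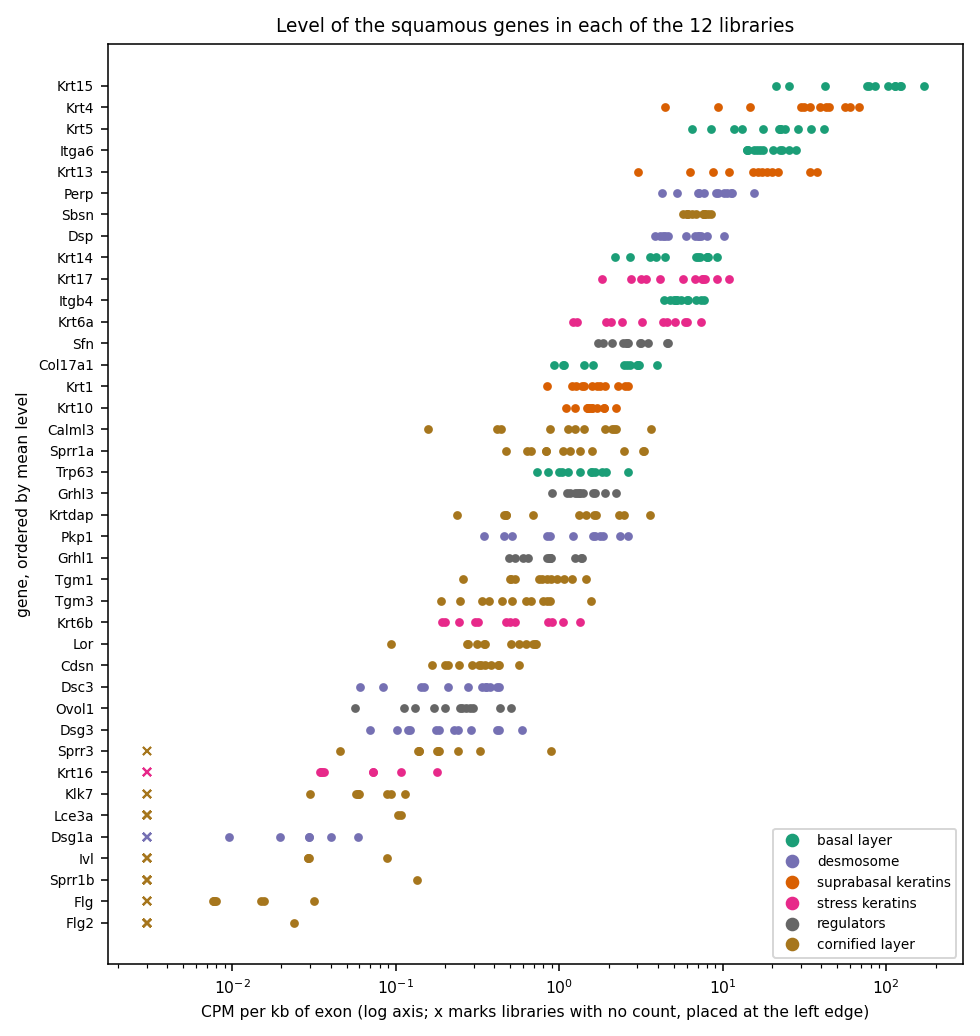
Level of each of the 40 squamous genes in CPM per kilobase of exon on a log axis, 1 point per library (12 libraries) and coloured by role, with genes ordered by their mean and a cross at the left edge for a library with no count. Krt15, Krt4 and Krt5 head the order. The 9 genes that did not pass the filter fall at its foot, 7 of them cornified-layer genes, involucrin and filaggrin included.

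The names of the list fit these data unevenly. Filaggrin (Flg) totalled 12 counts and filaggrin-2 (Flg2) 3 counts over the 12 libraries, involucrin (Ivl) 6, the late cornified envelope gene Lce3a 2 and the small proline-rich gene Sprr1b 2. A count of 0 allows up to 3 counts, between 0.162 and 0.177 CPM in these libraries, for counting error alone. Of 12 Lce genes in all, Lce3a included, 9 had no count, and the 12 together gave 6 counts. Krt2, the keratin of the upper epidermis, had 2 counts. These markers of cornified epidermis were not detectable or barely so at this depth. Other cornified-layer genes were counted in all 12 libraries, among them Lor (3 to 23 counts), Krtdap (2 to 30), Cdsn (8 to 27) and Tgm3 (14 to 114). The epidermal keratins Krt1 (37 to 117 counts) and Krt10 (42 to 83) were as well. Because the list divides in this way, the 40 genes are called squamous genes here rather than keratinocyte genes.

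The ratio of mucosal to epidermal keratin was above 1 in every library. Krt4 over Krt1, per kilobase, lay between 5.26 (ET replicate 3) and 48.0 (K412R replicate 3) with a median of 22.1, and it was 12.5 ± 7.72 (SD, n = 3) in ET, 25.3 ± 2.52 for WT, 33.6 ± 12.7 for K412R and 12.2 ± 5.89 for the libraries labelled K238R. The 3 WT and the 3 K412R libraries lay above all 6 others. Krt13 over Krt10 ran from 2.74 in ET replicate 3 to 23.1 in WT replicate 3 with a median of 10.3, and its groups overlapped, apart from WT above ET and above the libraries labelled K238R. Krt15 exceeded Krt14 by 5.78 to 21.9 times, and Krt4 stood at 0.683 to 2.67 times Krt5, the lowest value again being that of ET replicate 3.

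**Figure D2:**
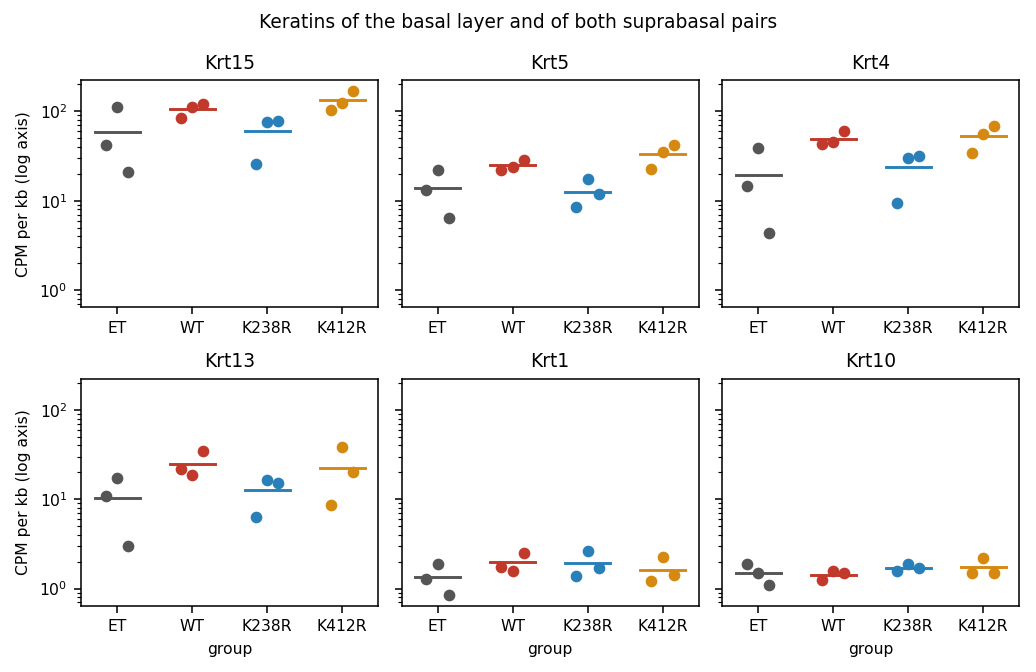
CPM per kilobase of exon on a log axis for the basal keratins Krt15 and Krt5, the mucosal suprabasal pair Krt4 and Krt13 and the epidermal suprabasal pair Krt1 and Krt10, with 1 point per library and a bar at the mean of the 3 libraries of each group. ET scatters widely for the first 4 genes, the libraries labelled K238R for Krt15, Krt4 and Krt13, and K412R for Krt13 (8.69 to 37.9). Krt1 and Krt10 stay between 0.838 and 2.65 in all 12 libraries.

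In the basal layer, Krt15, Krt5, Krt14, Col17a1 and Trp63 had higher means in WT and K412R than in ET and the libraries labelled K238R, while the integrin genes Itga6 and Itgb4 did not follow this order. Krt15, a type I keratin of basal cells, measured 71.5, 192 and 36.1 CPM in ET, 145, 191 and 205 for WT, 175, 209 and 290.0 for K412R and 43.4, 130.0 and 133 for the libraries labelled K238R. ET replicates 1 and 3 and replicate 1 of the libraries labelled K238R were far below the other 9 libraries, and ET replicate 2 lay within the range of WT. Krt5 measured 28.6, 48.9 and 14.2 CPM for ET against 48.1, 53 and 63.4 CPM for WT, with 49.6, 76.5 and 91.4 CPM for K412R and 18.7, 38.6 and 25.8 CPM for those labelled K238R, with ET replicate 3 and replicate 1 of the libraries labelled K238R at the foot and K412R replicates 2 and 3 at the head. Krt14, its partner, spanned 3.72 to 15.6 CPM, and all 3 WT and all 3 K412R libraries lay above every ET library and every library labelled K238R. Collagen XVII (Col17a1), a hemidesmosome protein, spanned 5.17 to 22.1 CPM. Trp63, the basal-layer transcription factor, spanned 6.17 to 22.2 CPM, and its lowest library was ET replicate 3. Itga6, the integrin α6 chain that pairs with integrin β4 in hemidesmosomes and is also made by neural and endothelial cells, measured 110.3, 67.6 and 123 CPM in ET, 73.6, 62.4 and 61.6 for WT, 97.4, 76.3 and 88 for K412R and 100.3, 61.6 and 70.2 for the libraries labelled K238R. Its highest values were those of ET replicates 3 and 1, of which replicate 3 was the lowest library for Krt15, Krt5 and Krt14. Itgb4 spanned 27.7 to 48.7 CPM, with the 3 K412R libraries above all others.

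Desmosome genes took the same group order. Desmoplakin (Dsp), which ties keratin filaments to every desmosome and is made by simple as well as stratified epithelia, measured 36.8, 68.1 and 41.6 CPM in ET, 64.6, 57.5 and 68.6 for WT, 76.4, 70.1 and 97.5 for K412R and 42.7, 39.6 and 44.5 for the libraries labelled K238R. All 3 K412R libraries lay above the ET libraries and those labelled K238R, and WT overlapped ET through ET replicate 2 alone. Perp, a tetraspan protein of desmosomes in stratified epithelia, measured 13.9, 18.2 and 10.3 CPM for ET against 22.1, 20.6 and 21.8 CPM for WT, with 17.7, 20 and 30.3 CPM for K412R and 8.3, 13.7 and 14.9 CPM for those labelled K238R, so that WT and ET did not overlap. Plakophilin 1 (Pkp1), a plaque protein of suprabasal desmosomes, measured 2.39, 7.55 and 1.61 CPM in ET, 7.76, 8.7 and 12.2 for WT, 5.63, 8.31 and 11 for K412R and 2.16, 3.94 and 4.07 for the libraries labelled K238R. Here the lowest library was ET replicate 3 and the highest WT replicate 3. Desmoglein 3 (Dsg3) and desmocollin 3 (Dsc3), cadherins of the basal and lower layers, were low, spanning 0.485 to 4.13 and 0.324 to 2.28 CPM, and desmoglein 1 (Dsg1a), the cadherin of the upper epidermis, reached at most 0.335 CPM.

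Of the suprabasal keratins, the mucosal pair varied widely among libraries and the epidermal pair little. Krt4 measured 31.2, 83.4 and 9.4 CPM in ET, 91, 95.7 and 127 for WT, 72.6, 119 and 145 for K412R and 20.1, 63.8 and 67.1 for the libraries labelled K238R. Its highest library held 15.5 times the CPM of its lowest. Krt13 measured 18, 28.7 and 5.0 CPM for ET against 35.8, 30.8 and 56.6 CPM for WT, with 14.4, 62.7 and 33 CPM for K412R and 10.5, 27.2 and 25.2 CPM for those labelled K238R, and K412R replicate 1 fell below ET replicate 1 although the other K412R libraries stood above every ET library. Krt1 measured 3.13, 4.66 and 2.06 CPM in ET, 4.33, 3.9 and 6.22 for WT, 2.95, 5.6 and 3.48 for K412R and 3.4, 6.5 and 4.18 for the libraries labelled K238R, with all 4 groups overlapping. Krt10 spanned 2.34 to 4.69 CPM, and its groups overlapped likewise.

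Among the stress keratins, which mark wounded and hyperproliferative epithelium and also line the hair follicle and mucosa, Krt17 measured 4.89, 11.7 and 2.84 CPM in ET, 11.5, 8.81 and 10.5 for WT, 12, 14.2 and 17 for K412R and 4.26, 6.45 and 5.27 for the libraries labelled K238R. Krt6a measured 5.51, 7.31 and 2.78 CPM for ET against 11.6, 10.4 and 13.7 CPM for WT, with 9.86, 16.8 and 13.4 CPM for K412R and 4.69, 4.39 and 2.93 CPM for those labelled K238R. All WT and K412R libraries lay above all ET libraries and those labelled K238R for Krt6a. Krt6b was low, at 0.682, 0.708 and 0.445 CPM for ET against 2.36, 1.06 and 1.2 CPM for WT, with 2.01, 3.0 and 1.91 CPM for K412R and 0.431, 1.11 and 0.543 CPM for those labelled K238R. Of the 31-base words in its transcripts, Krt6a shared 49.3% with Krt6b and Krt6b 50.3% with Krt6a, so that the split of reads between these copies is uncertain. Krt16, which shared 19.7% of its words with Krt14, gave 16 counts over the 12 libraries.

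The regulators were low. Stratifin (Sfn), the 14-3-3 protein of stratified epithelia, measured 2.79, 4.13 and 3.0 CPM in ET, 5.06, 7.47 and 5.65 for WT, 5.13, 4.18 and 7.3 for K412R and 3.94, 3.39 and 4.23 for the libraries labelled K238R. Both grainyhead-like genes, whose products switch on barrier genes, were read at a few CPM. Grhl3 measured 4.61, 3.13 and 2.5 CPM for ET against 3.88, 3.46 and 3.71 CPM for WT, with 5.29, 4.47 and 6.23 CPM for K412R and 3.67, 3.22 and 3.58 CPM for those labelled K238R, and the 3 K412R libraries lay above the WT libraries and those labelled K238R. Grhl1 measured 2.1, 4.36 and 1.72 CPM in ET, 3.04, 3.07 and 3.14 for WT, 4.85, 2.94 and 4.77 for K412R and 2.26, 1.89 and 3.09 for the libraries labelled K238R, with WT inside the range of ET. Ovol1, a zinc-finger repressor at the exit from the basal layer, spanned 0.167 to 1.5 CPM.

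In the cornified layer, suprabasin (Sbsn) was read at a level of its own. It measured 14, 18.5 and 13.8 CPM in ET, 17.9, 19.3 and 13.8 for WT, 15.8, 13 and 17.2 for K412R and 14.8, 17.6 and 17.5 for the libraries labelled K238R, and every pair of groups overlapped. Transglutaminase 3 (Tgm3), one of the crosslinking enzymes of the envelope, measured 1.54, 2.77 and 0.778 CPM for ET against 3.49, 3.62 and 6.5 CPM for WT, with 2.12, 3.28 and 2.58 CPM for K412R and 1.02, 1.39 and 1.85 CPM for those labelled K238R. All 3 WT libraries lay above all 9 others. Transglutaminase 1 (Tgm1), the membrane-bound crosslinking enzyme, measured 2.27, 2.54 and 0.778 CPM in ET, 3.2, 2.34 and 2.68 for WT, 2.9, 4.41 and 3.59 for K412R and 1.51, 1.61 and 1.52 for the libraries labelled K238R. The small proline-rich gene Sprr1a is given in full as well, having been chosen after its values were seen, and measured 0.512, 0.944 and 0.667 CPM for ET against 0.843, 1.28 and 1.08 CPM for WT, with 2.01, 2.6 and 2.64 CPM for K412R and 0.539, 0.667 and 0.38 CPM for those labelled K238R. Its 3 K412R libraries lay above all 9 others, and ET, WT and the libraries labelled K238R stayed at or under 1.28 CPM. Calml3, a calmodulin-like protein of differentiating epithelium, spanned 0.222 to 5.19 CPM, Krtdap 0.111 to 1.70, loricrin (Lor) 0.167 to 1.26 and corneodesmosin (Cdsn) 0.449 to 1.52.

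Summed over the 40 genes, the level was 320 to 671 CPM in ET, 641 to 783 for WT, 671 to 986 for K412R and 346 to 499 for the libraries labelled K238R. In bulk tumours, fewer squamous cells and less RNA per squamous cell cannot be told apart. Both WT and K412R had group means above both other groups for 25 of the 31 tested genes, an order held by 14.4% of all tested genes, and the opposite order was held by 0 of the 31 against 24%. This order was picked out after the values were seen and is given without a test. The highest group mean was that of K412R for 18 genes, of WT for 12 and of ET for 1 (Itga6), and the lowest that of the libraries labelled K238R for 14, of ET for 13, of WT for 3 and of K412R for 1. Within groups the libraries were not alike. ET replicate 3 was the lowest of the 12 libraries for 21 of the 31 genes (21.8% of all tested genes), ET replicate 2 exceeded both other ET libraries for 27 (42.5%), and replicate 1 of the libraries labelled K238R was the lowest of its group for 22 (35.6%). Ranked from 1 for the lowest library, the median rank over the 31 genes was 1 for ET replicate 3, 2 and 4 for replicate 1 and replicate 2 of the libraries labelled K238R, 4 for ET replicate 1, 7 for ET replicate 2 and 11 for K412R replicate 3.

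**Figure D3:**
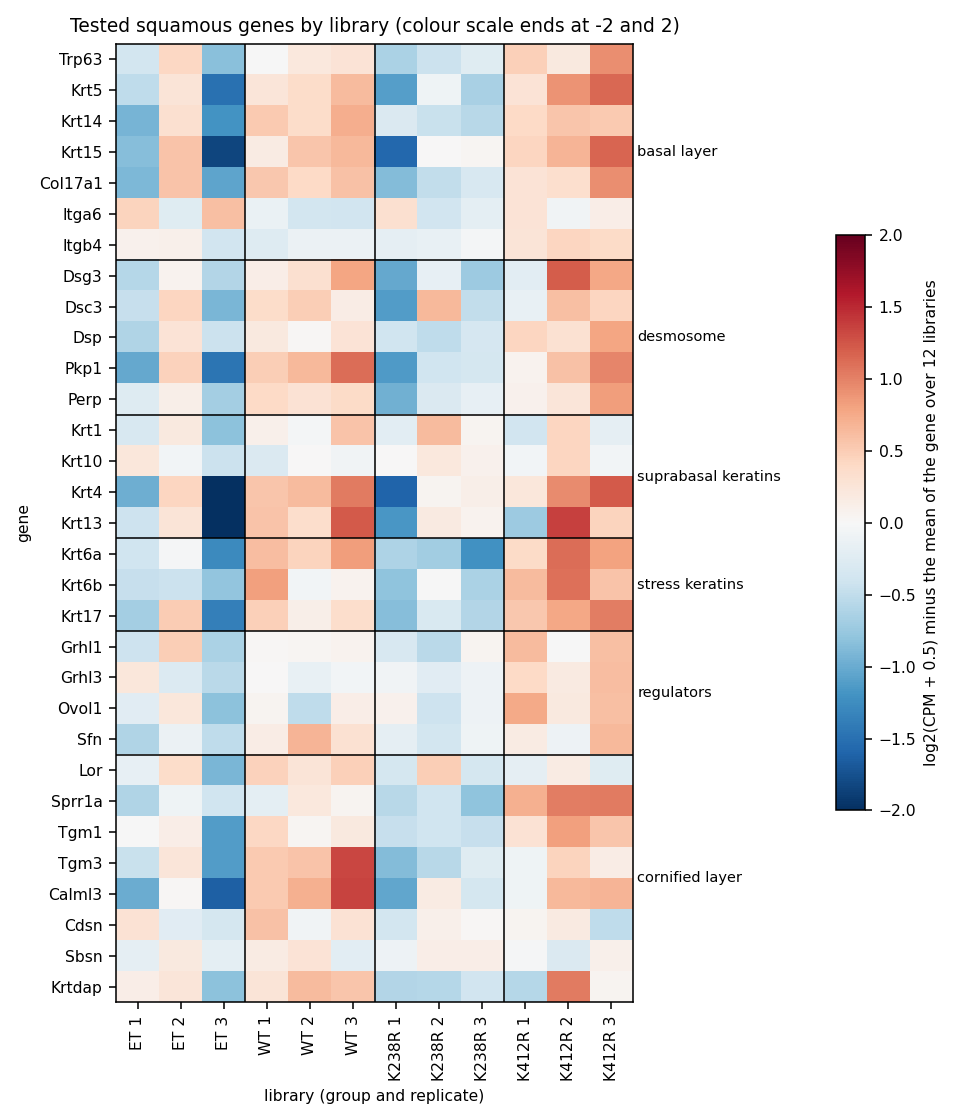
Heat map of the 31 tested genes (rows, by role) in the 12 libraries (columns, by group), coloured by log2(CPM + 0.5) minus the mean of the gene over the libraries. Blue columns at ET replicates 1 and 3 and at replicate 1 of the libraries labelled K238R run through most keratin and desmosome rows, ET replicate 2 is red or pale in most of them, and Itga6, Krt10 and Sbsn depart from the pattern.

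WT against ET sets tumours of cells given wild-type Dnmt3L beside tumours of cells given the empty vector. In this and every other comparison, the insert and differences between the separately derived cell lines cannot be told apart. The genes of the list are not independent of one another, and their shared direction in a comparison is described without a test. Squamous genes were higher in WT as a list, with a log2 fold change above 0 for 28 of 31 (49.2% of all tested genes) and a median of 0.79 against −0.01 over all tested genes, but 0 of the 31 passed the adjusted threshold of 0.05 in edgeR's quasi-likelihood test, which 0.0489% of tested genes passed. At an unadjusted p under 0.05, 11 genes were higher (14% of tested genes) and 1, Itga6, lower (15.1%). With the 2-fold criterion added, 7 were higher (3.3%), namely Krt4, Krt6a, Krt6b, Krt14, Pkp1, Tgm3 and Calml3. The smallest adjusted p was that of Krt6a (log2 fold change 1.23, SE 0.32, adjusted p = 0.102). Calml3 had the largest difference (log2 fold change 2.12, SE 0.61, adjusted p = 0.107), followed by Tgm3 (log2 fold change 1.46, SE 0.43, adjusted p = 0.108) and Krt4 (log2 fold change 1.38, SE 0.62, adjusted p = 0.165). DESeq2 called 6 genes, all higher (10.3% of tested genes), Krt6a, Krt14, Sfn, Pkp1, Tgm3 and Calml3. No overlap between groups, with WT above, was seen for 12 genes (9.41%). The adjusted threshold was passed by 15 genes without ET replicate 2, 14 of them higher and Itga6 lower, in a fit where 31% of all genes passed, and without WT replicate 1 only Sfn did (6.93%). The 2-fold count was 4 without ET replicate 1, 16 without ET replicate 2, 3 without ET replicate 3 and 4 without WT replicate 3. Here and below, 2-fold counts with a library left out lack the share over all tested genes. They show only how far the count moved.

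For K412R against ET the list again lay higher, with 29 of 31 log2 fold changes above 0 (46.4% of tested genes) and a median of 0.77 against −0.02. The adjusted threshold was passed by 0 genes in edgeR (0% of tested genes), while 20 were higher at an unadjusted p under 0.05 (4.37%) and 0 lower (3.48%). The 2-fold criterion was met by 12 genes, all higher (0.717%). They were the basal keratins Krt5, Krt14 and Krt15, the desmosome genes Dsg3 and Pkp1, Krt4, the stress keratins Krt6a, Krt6b and Krt17, the repressor Ovol1, and Sprr1a and Calml3. Sprr1a had the smallest adjusted p (log2 fold change 1.77, SE 0.33, adjusted p = 0.264), and Krt6b the largest difference (log2 fold change 1.92, SE 0.44, adjusted p = 0.355). Dsp differed by less, with a smaller error (log2 fold change 0.74, SE 0.19, adjusted p = 0.388). DESeq2 called Krt6a, Krt6b and Sprr1a (0.489% of tested genes). All K412R libraries lay above all ET libraries for 10 genes (5.01%). The adjusted threshold was passed by 10 genes without ET replicate 2 (1.36%), among them Krt14, Dsp, Col17a1 and Krt17. The 2-fold count was 5 without ET replicate 1, 20 without ET replicate 2, 3 without ET replicate 3 and 6 without K412R replicate 2.

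The libraries labelled K238R were compared with WT next. Their squamous genes were lower, 29 of 31 having a log2 fold change below 0 (49.9% of tested genes), with a median of −0.86 against 0.00078 over all tested genes. Again 0 passed the adjusted threshold in edgeR (0.174%), 17 were lower at an unadjusted p under 0.05 (9.64%) and 0 higher (7.93%). The 2-fold criterion was met by 11, all lower (3.59%), Krt5, Krt14, Col17a1, Dsg3, Pkp1, Krt6a, Krt6b, Sprr1a, Tgm3, Calml3 and Krtdap. Krt6a came nearest to the adjusted threshold (log2 fold change −1.62, SE 0.32, adjusted p = 0.0699), ahead of Tgm3 (log2 fold change −1.72, SE 0.43, adjusted p = 0.104) and Perp (log2 fold change −0.85, SE 0.25, adjusted p = 0.135). All libraries labelled K238R lay below all WT libraries for 19 of the 31 genes (11.3%), Krt15 and Krt4 among them, though for Krt15 the difference was within 2 standard errors (log2 fold change −0.87, SE 0.52, adjusted p = 0.387). DESeq2 called 6 genes lower (4.27%), Krt6a, Krt14, Dsp, Perp, Pkp1 and Tgm3. Without ET replicate 2, whose group is not in this comparison but shares its estimate of the spread, 7 genes passed the adjusted threshold (4.3%), and without ET replicate 3 only Krt6a did (0.665%). The 2-fold count was 7 without WT replicate 3 and 5 and 6 without replicates 1 and 3 of the libraries labelled K238R.

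K412R was also set against the libraries labelled K238R. K412R was higher for 28 of the 31 genes (48% of tested genes) with a median log2 fold change of 0.997 against −0.01, and the 3 genes below 0 were Krt1, Lor and Sbsn. In edgeR 0 genes passed the adjusted threshold (0.0217%), 19 were higher at an unadjusted p under 0.05 (7.05%), 0 were lower (4.81%) and 12 met the 2-fold criterion (1.69%). Sprr1a had the largest difference and the smallest adjusted p (log2 fold change 2.20, SE 0.34, adjusted p = 0.069), followed by Krt6a (log2 fold change 1.76, SE 0.32, adjusted p = 0.0875) and Dsp (log2 fold change 0.96, SE 0.19, adjusted p = 0.0941). Trp63 stood higher as well (log2 fold change 1.05, SE 0.28, adjusted p = 0.18), as did Krt5 (log2 fold change 1.40, SE 0.39, adjusted p = 0.19). No library overlapped for 18 genes (8.75%). DESeq2 called 11 genes, all higher (2.03%), Trp63, Krt5, Itgb4, Dsg3, Dsp, Perp, Krt6a, Krt6b, Krt17, Sprr1a and Tgm1. The adjusted threshold let through 7 genes without ET replicate 2 (1.03%), and the 2-fold count stayed between 9 and 16 with each library left out in turn.

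K412R and WT differed little in the median of the list, which does not show that the groups were alike. The median log2 fold change was 0.14 against 0.01 over all tested genes, with 19 genes above 0 and 12 below. The adjusted threshold was passed by 0 of the 31 genes in edgeR (2.02% of tested genes), and 3 were higher at an unadjusted p under 0.05 (10.2%), Sprr1a (log2 fold change 1.15, SE 0.32, adjusted p = 0.0778), Itgb4 (log2 fold change 0.51, SE 0.12, adjusted p = 0.0578) and Grhl3 (log2 fold change 0.51, SE 0.22, adjusted p = 0.197). Sprr1a alone met the 2-fold criterion (1.66%). DESeq2 called Sprr1a and Itgb4 (9%). Of the cornified-layer genes, Tgm3 (log2 fold change −0.79, SE 0.41, adjusted p = 0.271) and Lor (log2 fold change −0.76, SE 0.56, adjusted p = 0.43) were lower in all 3 K412R libraries than in any WT library, and Sprr1a was higher. Of the 31 genes, 7 lay above WT without overlap (14.4% of tested genes) and 2 below (16.6%). The keratins differed by less than their errors in Krt14 (log2 fold change −0.07, SE 0.32, adjusted p = 0.906), Krt4 (log2 fold change 0.07, SE 0.60, adjusted p = 0.954) and Krt13 (log2 fold change −0.18, SE 0.60, adjusted p = 0.873), among others. Log2 fold changes exceeded their errors for Krt17 (0.47, SE 0.37), Krt6b (0.57, SE 0.41) and Krt10 (0.26, SE 0.25). Without ET replicate 2 the genes Sprr1a and Itgb4 passed the adjusted threshold (8.2% of tested genes), without ET replicate 3 Itgb4 did (3.72%), and without WT replicate 1 the 2-fold count was 0.

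Between the libraries labelled K238R and ET, 14 genes had a log2 fold change above 0 and 17 below, with a median of −0.09 against −0.02. The adjusted threshold was passed by 0 genes in edgeR (0% of tested genes) and 0 in DESeq2 (0.0761%), and 0 reached an unadjusted p under 0.05 (5.58%). Errors were wide, as for Krt15 (log2 fold change 0.02, SE 0.52, adjusted p = 0.992) and Krt4 (log2 fold change 0.28, SE 0.61, adjusted p = 0.909), and a p that misses the threshold does not show that these groups were alike. The 2-fold criterion was met by 2 genes once ET replicate 2 was left out, both higher in the libraries labelled K238R. The 6 comparisons share libraries and are not independent of one another.

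**Figure D4:**
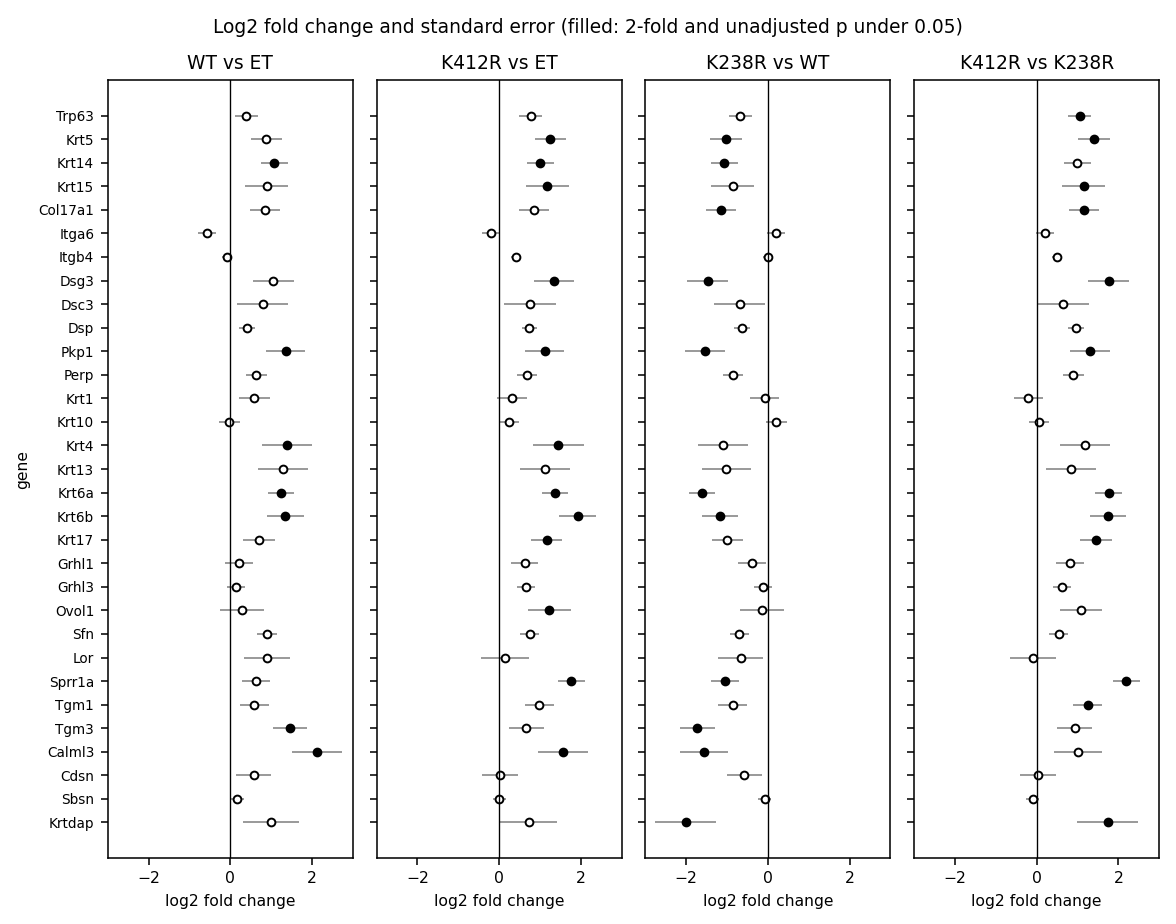
Log2 fold change (points) and standard error (bars) of the 31 tested genes in 4 comparisons, filled where the difference was at least 2-fold with an unadjusted p under 0.05. Most points lie right of 0 for WT against ET, K412R against ET and K412R against the libraries labelled K238R, and left of 0 for the libraries labelled K238R against WT, with Itga6, Itgb4, Krt10 and Sbsn near 0 or on the other side in part of them.

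Other genes of squamous epithelium were read from 4 further lists of 80 genes. Of 16 other junction and basement-membrane genes, 14 were tested, the most abundant being the plakins Dst and Plec, and Itga3, the integrin α3 chain, rose in K412R against WT (log2 fold change 0.41, SE 0.08, adjusted p = 0.027). At an unadjusted p under 0.05, 8 of the 14 were higher in K412R than in ET (4.37% of all tested genes). Against WT, 7 were higher in K412R (10.2%) and 0 lower (12.5%). Only 5 of 11 other keratins of stratified epithelia were tested, and Krt80, the most abundant, spanned 0.647 to 7.86 CPM and was lower in the libraries labelled K238R than in WT (log2 fold change −2.27, SE 0.52, adjusted p = 0.0945). Of 35 other envelope and barrier genes 10 were tested and 12 had no count, and the most abundant were the lipid enzyme Elovl4 and dermokine (Dmkn). One of them, Sprr2a1, had counts in 4 libraries alone, and as a member of a family of near copies its counts are uncertain. All 18 other regulators were tested, led by Notch3 and Klf5. In K412R against the libraries labelled K238R, 9 were higher (7.05% of all tested genes) and 1 lower (4.81%) at an unadjusted p under 0.05.

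Markers of other tissues moved in part with the squamous genes. Simple epithelium, read from 11 genes that were all tested and led by Krt8 and Krt19, summed to 314 to 485 CPM in ET, 394 to 489 for WT, 547 to 735 for K412R and 305 to 404 for the libraries labelled K238R, and the tight-junction gene Cldn6 rose in K412R against WT (log2 fold change 1.55, SE 0.28, adjusted p = 0.0218). At an unadjusted p under 0.05, 10 of the 11 were higher in K412R than in the libraries labelled K238R (7.05% of all tested genes). Against ET, 7 of 11 were higher in K412R (4.37%). Against WT, 7 were higher in K412R (10.2%) and 0 lower (12.5%), with a median log2 fold change of 0.61. WT against ET gave 1 higher (Krt7, 14% of all tested genes) and 2 lower (15.1%). Airway genes (7 of 10 tested, led by Foxj1 and Muc5b) summed to 66.4 to 119 CPM in ET, 94.1 to 103 for WT, 102 to 134 for K412R and 82.1 to 93.8 for the libraries labelled K238R, and Sftpc rose in K412R against WT (log2 fold change 1.21, SE 0.27, adjusted p = 0.0434), although 5 of the 7 had a log2 fold change below 0 there and the median was −0.33. Neural genes (8 of 8 tested, led by Map2 and Tubb3) summed to 2106 to 2532 CPM in ET, 2466 to 3069 for WT, 1951 to 2121 for K412R and 2595 to 2979 for the libraries labelled K238R, and Elavl3 fell in K412R against WT (log2 fold change −0.70, SE 0.12, adjusted p = 0.0188). Skeletal muscle genes (7 of 7 tested, led by Acta1 and Myh4) ranged from 174 to 2200 CPM within WT and from 12.2 to 1052 CPM within the libraries labelled K238R, and fat genes (4 of 7 tested, led by Fabp4 and Cfd) from 7.64 to 53.6 CPM within WT and from 1.30 to 11.9 elsewhere. With the 2-fold criterion and an unadjusted p under 0.05, all 4 tested fat genes were higher in WT than in ET (median log2 fold change 3.62). All 4 were lower in K412R than in WT (median −4.56). The same held for 2 of the 7 muscle genes in each comparison, with 0 past the adjusted threshold. Of all tested genes, 3.3% were higher by this criterion in WT against ET. In K412R against WT, 12.5% were lower at an unadjusted p under 0.05 with no fold required. The part of these tissues in the squamous values was not tested.

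The tumours grew under the skin of the host, and markers of skin appendages were low. Of 21 hair follicle genes, 18 were at or under 1 CPM in every library, the 17 hair keratins reached at most 1.13 CPM, and the list, led by Tchh and Padi3, summed to 5.23 to 14.3 CPM. The melanocyte list summed to 0.890 to 2.65 CPM, with Pmel ahead of Dct and as the only tested gene of 7. The sebaceous list summed to 6.07 to 11.7 CPM, led by Mc5r and Scd3, and Awat1 had no count in any library. At an unadjusted p under 0.05 each of these 3 lists gave at most 1 gene in a comparison (5.58% to 29.1% of all tested genes, by comparison).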

How the data were processed

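RNA of the teratomas was measured in 12 RNA-seq libraries made with the CORALL V2 kit. Trimming with fastp, alignment with STAR and quantification with Salmon were done by the authors. The submitters' processing notes name the build GRCm39 and also GATK, whose role, like the annotation and the use of molecular identifiers, is not given in the sources used here. The deposited values are estimated counts per gene symbol, without normalization and already whole. Counts were scaled to CPM for description and fitted with edgeR 4.0.16 in R 4.3.3 (TMM scaling, filterByExpr, quasi-likelihood test, all 12 libraries, 1 mean per group), with Benjamini-Hochberg adjustment over 18405 genes. A gene passed at an adjusted p under 0.05. The criterion of the study, 2-fold with an unadjusted p under 0.05, was counted beside it. The standard error is the log2 fold change divided by the root of the F statistic. DESeq2 1.42.0, which the methods of the study name, was an alternative, as were RLE scaling, 2 other filters, robust moderation, fits of the compared groups alone, a block by replicate number, library sizes without the most abundant RNA (Gm26917, 7.47% to 13.9% of counts) and each library left out. The fit was tested on simulated data. Levels per kilobase used exon lengths of GENCODE M21 on GRCm38, matched by symbol for 40 of 40 genes. Promoter windows came from RefSeq (GRCm38.p6), with no coordinates converted between builds. CPM floors cover counting error only.

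The 40 genes, their 6 roles and all other lists were chosen with earlier results of these data known. Values in every library are printed for the 3 genes of each role with the highest mean CPM. They were also to be printed for any of the 40 genes past the adjusted threshold, of which there were 0 in the main edgeR fit. Other genes are given by range. In each further list the 2 most abundant genes and up to 3 that passed are named, and Krt7, Sprr2a1 and Awat1 were added after their values were seen.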

Additional observations from a re-analysis of the deposited data

How the results depend on the processing

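The counts of squamous genes past the adjusted threshold were 0 in the main edgeR fit for all 6 comparisons. They depended on the tool, the filter, the design and the libraries fitted. DESeq2 called 6 for WT against ET, 6 for the libraries labelled K238R against WT, 2 for K412R against WT, 3 for K412R against ET and 11 for K412R against the libraries labelled K238R. Without a filter on low counts, 1 gene passed for the libraries labelled K238R against WT (0.875% of tested genes) and 3 for K412R against them (0.0998%). Fits of the compared groups alone called 6, 2 and 5 genes (2.03%, 10.7% and 0.295% of tested genes) for the libraries labelled K238R against WT, K412R against WT and K412R against the libraries labelled K238R. Leaving out single libraries, the count ranged from 0 to 15 for WT against ET, 0 to 7 for the libraries labelled K238R against WT, 0 to 2 for K412R against WT, 0 to 0 for the libraries labelled K238R against ET, 0 to 10 for K412R against ET and 0 to 7 for K412R against the libraries labelled K238R. The 2-fold counts ranged from 3 to 16, 5 to 12, 0 to 1, 0 to 2, 3 to 20 and 9 to 16 in the same order, and stayed within 1.5 times of the reported count under the other alternatives. RLE scaling, the stricter filter, robust moderation and the exclusion of Gm26917 gave 0 calls throughout. The count of 25 genes with both means of WT and K412R above the other 2 groups, examined after seeing the data, was 25 with TMM-scaled CPM and 21 to 26 with a library left out. As no squamous gene passed in the main edgeR fit, the alternatives planned for the fold changes of such genes had none to apply to. The cause of these shifts was not tested.

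Same-numbered libraries of different groups deviated together (r over 0.1) in 9 of 18 pairs, with r between −0.334 and 0.477. All 3 pairs were over 0.1 for ET with the libraries labelled K238R alone, where 4 of the 6 libraries correlated best with their own number. All 6 did so for K412R with the libraries labelled K238R, where 2 of 3 pairs were over 0.1. Across the groups the libraries were taken to share only a number. With the replicate block, 2 squamous genes passed for WT against ET (Krt6a and Calml3, 4.98% of tested genes), 1 for the libraries labelled K238R against WT (Krt6a, 1.13%) and 2 for K412R against WT (Sprr1a and Itgb4, 6.28%). The count of all genes passing went from 9 to 917, from 32 to 208 and from 372 to 1155 in these comparisons. The block gave 0 squamous genes and 0 genes in all for the libraries labelled K238R against ET and for K412R against ET. It also gave 0 genes in all for K412R against the libraries labelled K238R, where 4 had passed in the main fit.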
